A study of Mus musculus with 6 samples.

Results

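The integrated stress response and the unfolded protein response were examined in the mouse retina through 10 genes: Atf3, Atf4, Ddit3, Trib3, Chac1, Asns, Sesn2, Hspa5, Xbp1 and Hsp90b1. They were taken by gene symbol from the 22173 genes in the deposited values, all 10 were found, and all 10 were abundant enough to be tested. RNA of whole retina, collected at postnatal day 17, was sequenced in 3 Control and 3 oxygen-induced retinopathy (OIR) libraries. All animals were wild-type C57BL/6J mice. Control pups stayed in room air, while OIR pups breathed 75% oxygen between postnatal days 7 and 12 and room air again until day 17. High oxygen prunes the growing retinal vessels, and the return to room air leaves poorly perfused, hypoxic retina in which abnormal vessels grow. Whether each library stands for its own animal is not said in the labels, and p-values therefore measure only the spread among these libraries, which may be technical.

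The integrated stress response is a shared brake on protein synthesis. Kinases that sense misfolded protein in the endoplasmic reticulum (ER), amino acid shortage, viral RNA or lack of haem phosphorylate the translation factor eIF2. General translation then slows, while the mRNA of the transcription factor ATF4 is translated better, and ATF4 switches on genes of amino acid supply, of redox balance and, with its target CHOP, of cell death. The unfolded protein response joins this arm to the ER sensors IRE1 and ATF6, which raise the chaperones that fold secreted and membrane proteins. Chaperone genes such as Hspa5 and ATF4 target genes such as Trib3 therefore report on different arms.

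The arms differ in the DNA elements through which they act, and the matches are shown to place each member's promoter beside its values. Whether these elements bear on which members rose was not tested. ATF4 binds C/EBP-ATF response elements, searched here by the core TGATGNAA. ATF6 and NF-Y bind the ER stress response element, which has CCAAT followed after a gap of 9 bases by CCACG. Both were searched on both strands of the RefSeq promoter windows (GRCm38.p6), which run from 250 bases before to 50 bases after the transcription start, and all 10 members had a window. The C/EBP-ATF core was found in 4 of the 10 windows, those of Atf3, Trib3, Chac1 and Asns, against 3.97% of all 32851 windows. The ER stress response element was found in 2, those of Hspa5 and Hsp90b1, against 0.119% of all windows. Of the members with the C/EBP-ATF core, Atf3, Trib3 and Chac1 rose in OIR and Asns did not pass. Hspa5 and Hsp90b1 did not pass, and Ddit3 rose with no match. Neither the XBP1 and ATF6 element core TGACGTGG (0.676% of all windows) nor the cAMP response element TGACGTCA (1.79%) was found in a member's window, and the windows of Atf4, Ddit3, Sesn2 and Xbp1 held none of the elements searched. A match describes letters in this window and does not show binding. Below, each match stands in capitals within 20 bases of flanking sequence on either side, 5′ to 3′ along the gene's own strand.
Atf3, chr1:191183416-191183463, minus strand: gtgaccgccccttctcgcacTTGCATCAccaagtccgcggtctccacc
Trib3, chr2:152344019-152344066, minus strand: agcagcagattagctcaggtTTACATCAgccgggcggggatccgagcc
Chac1, chr2:119351029-119351076, plus strand: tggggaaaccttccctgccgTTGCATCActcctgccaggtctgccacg
Asns, chr6:7693205-7693252, minus strand: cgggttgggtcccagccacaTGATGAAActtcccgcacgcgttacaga
Hspa5, chr2:34772005-34772063, plus strand: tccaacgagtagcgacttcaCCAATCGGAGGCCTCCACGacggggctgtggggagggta
Hsp90b1, distal, chr10:86705618-86705676, minus strand: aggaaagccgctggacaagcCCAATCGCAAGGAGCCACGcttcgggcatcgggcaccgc
Hsp90b1, proximal, chr10:86705513-86705571, minus strand: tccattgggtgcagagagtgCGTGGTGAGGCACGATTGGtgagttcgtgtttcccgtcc

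The match began 110 bases before the start in Atf3, 193 bases before it in Chac1 and 23 bases before it in Asns, and in Trib3 it lay at bases 15 to 22 of the transcript. In Atf3, Trib3 and Chac1 the core reads on the opposite strand. The element of Hspa5 began 65 bases before the start. Hsp90b1 held 2, beginning 212 and 107 bases before its start, the second on the opposite strand.

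**Figure D1:**
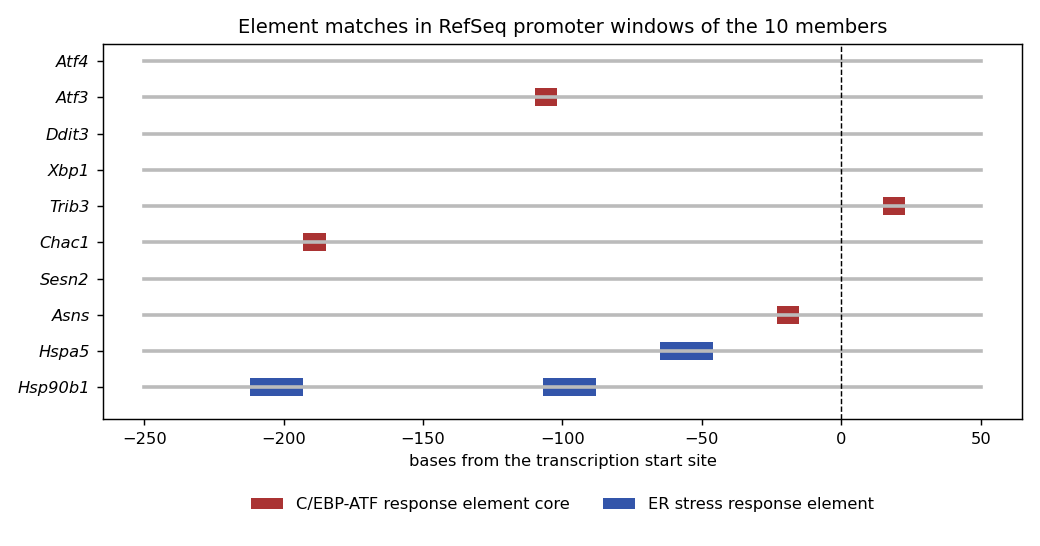
Positions of element matches in the promoter windows of the 10 members, with the x axis in bases from the transcription start site (dashed line). Red marks the C/EBP-ATF core in Atf3, Trib3, Chac1 and Asns, and blue the ER stress response element in Hspa5 and Hsp90b1.

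Values are in RPKM, a read count scaled to gene length and library depth. Depth recovered from the values was 35615501 to 38025623 reads per library. The rod transducin gene Gnat1 was abundant in every library, at 4864 to 6194 RPKM, as was Sag, the gene of rod arrestin, at 1200.5 to 1502.5 RPKM. Lens RNA differed between libraries: 18 lens genes took 6.08% of the reads of Control 3 and 0.534% of OIR 2, against 0.0143% to 0.0560% elsewhere. Summed levels of markers of 4 other cell types did not overlap between the groups. The 6 endothelial markers were at 43.4 to 47.8 RPKM in Control and 71.1 to 80.0 in OIR, with 5 of 6 higher. The 6 microglia and macrophage markers were at 20.4 to 22.5 and 57.9 to 75.5 RPKM, with all 5 tested ones higher. The 5 red cell genes were at 47.3 to 55.8 and 84.2 to 158.0 RPKM, with all 4 tested ones higher. The 5 pigment epithelium markers were at 43.3 to 50.9 and 35.7 to 41.4 RPKM, with 1 of 3 tested ones, Rgr, lower. Of 6 Müller glia markers, 4 were lower and 2 higher, and their sums overlapped, at 2138 to 2426 RPKM in Control and 1942 to 2183 in OIR. No marker was at 0 in all libraries. The part of these cell types in the results below was not tested, and in whole tissue a change in the number of cells of a type and a change of RNA per cell cannot be told apart.

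Of the 10 members, 4 rose in OIR and none fell, at an adjusted p under 0.05 in limma, where 11.6% of the 12112 genes tested were higher and 7.22% lower. Those that rose were Atf3, Ddit3, Trib3 and Chac1. The members were chosen with earlier results of these data known, so these counts are a description and not a test. In 5 members every OIR value lay above every Control value (23.6% of all genes tested), and in 2 members, both ER chaperones, every OIR value lay below (15.0%). The median log2 fold change was 0.16 over the members and 0.03 over all genes tested, on the log2(RPKM + 1) scale, which understates changes of low genes.

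**Figure D2:**
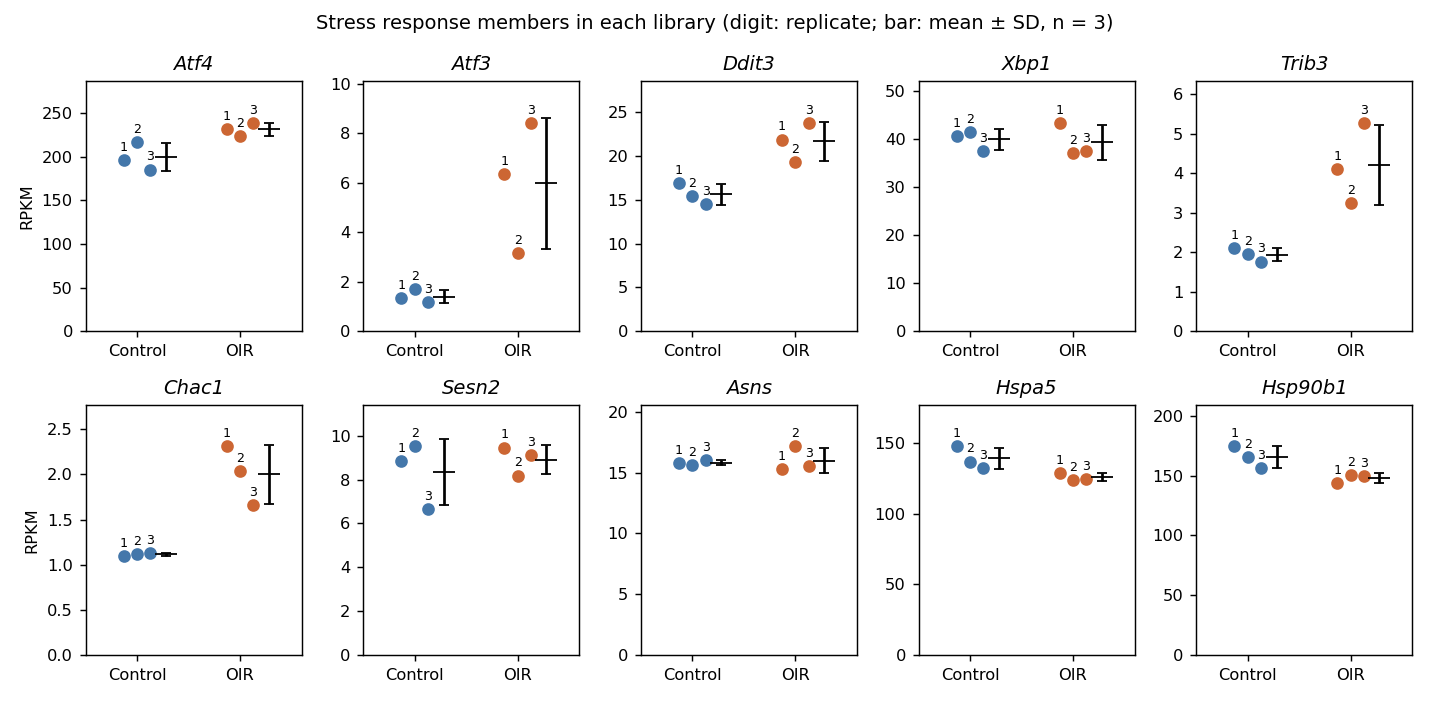
RPKM of each member in each library, on axes that start at 0; points are libraries with their replicate number, and bars give the mean ± SD of 3 libraries. The OIR points lie above all Control points for Atf4, Atf3, Ddit3, Trib3 and Chac1 and below them for Hspa5 and Hsp90b1.

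Among the transcription factors, the stress-induced repressor and activator Atf3 rose most. It was at 1.33, 1.69 and 1.18 RPKM in Control 1, 2 and 3 and at 6.35, 3.16 and 8.43 RPKM in OIR 1, 2 and 3. The lowest OIR value, in OIR 2, was above the highest Control value, and the OIR libraries differed among themselves far more than the Control libraries. The means were 1.40 ± 0.263 and 5.98 ± 2.65 RPKM (SD, n = 3 each), a ratio of 4.27, with 83 to 124 reads in Control and 229 to 634 in OIR. On the log2 scale Atf3 rose by 1.47 (SE 0.322; limma, adjusted p = 0.0375). This stood at the 99.6th percentile of the log2 fold changes of all genes tested. The call ended when Control 1, Control 2, Control 3, OIR 1 or OIR 3 was left out, at adjusted p of 0.133, 0.102, 0.0552, 0.154 and 0.0513, and with limma-voom on recovered reads, at 0.0599, while the log2 fold change stayed between 1.21 and 1.998 over all 13 alternative fits. Without OIR 2 the adjusted p was 8.07e-07 and without both lens-rich libraries 0.000119.

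Ddit3 encodes CHOP, the ATF4 target linked to cell death under lasting ER stress. Its Control values were 16.9, 15.5 and 14.6 RPKM and its OIR values 21.9, 19.3 and 23.8 RPKM. The groups did not overlap, and OIR 2 was again the lowest of the OIR libraries. The means were 15.6 ± 1.18 and 21.7 ± 2.26 RPKM (SD, n = 3 each), a ratio of 1.39, with 1261 to 2201 reads per library. Ddit3 rose by 0.44 on the log2 scale (SE 0.0866; limma, adjusted p = 0.00789), and this call held in all 13 alternative fits, at adjusted p of 0.000726 to 0.0408. In the RefSeq annotation of GRCm38.p6 the gene shares 71 bases with Mars1 and 77 with Mbd6, both of which were also higher in OIR (adjusted p of 0.0219 and 0.0196 in limma). Its deposited values imply a gene length of 2432 bases, while its longest GENCODE M21 transcript has 969. The level of Ddit3 per length is therefore uncertain against other genes, and reads of overlapping genes cannot be told apart where the counting did not use strand, which is not stated.

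Atf4, the transcription factor at the centre of the response, was one of the most abundant of all genes tested, at the 98.2th percentile of Control levels. Its values were 195.7, 216.7 and 185.1 RPKM in Control and 231.7, 223.3 and 238.7 RPKM in OIR. Every OIR value was above every Control value, but the distance was small. The means were 199.2 ± 16.1 and 231.2 ± 7.74 RPKM (SD, n = 3 each), a ratio of 1.16, and Atf4 did not pass, with a log2 fold change of 0.22, a 95% interval from 0.05 to 0.38 and an adjusted p of 0.0662 in limma. It passed without Control 2, at 0.0482, and without both lens-rich libraries, at 0.0385. ATF4 is controlled mainly through the translation of its mRNA, which these RNA levels do not measure.

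Xbp1, the transcription factor of the IRE1 arm, was at 40.6, 41.5 and 37.4 RPKM in Control and at 43.3, 37.0 and 37.3 RPKM in OIR. The groups overlapped, and the means of 39.8 ± 2.17 and 39.2 ± 3.55 RPKM (SD, n = 3 each) differed by less than the spread between libraries. The log2 fold change was -0.02, with a 95% interval from -0.19 to 0.15 and an adjusted p of 0.853 in limma. IRE1 acts on Xbp1 by removing a short stretch of its mRNA, and 1 value per gene does not separate the spliced from the unspliced form.

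Of the feedback and output genes, Trib3 and Chac1 rose and Sesn2 did not pass. Trib3 encodes a pseudokinase that is induced by ATF4 and CHOP and dampens their activity. Its Control values were 2.10, 1.96 and 1.77 RPKM and its OIR values 4.12, 3.25 and 5.28 RPKM. The groups stood well apart, with OIR 2 lowest and OIR 3 highest among the OIR libraries, as for Atf3 and Ddit3. The means were 1.94 ± 0.166 and 4.22 ± 1.02 RPKM (SD, n = 3 each), a ratio of 2.17, from 129 to 412 reads. Its log2 fold change of 0.81 (SE 0.129) had an adjusted p of 0.00375 in limma, which ranged from 4.04e-05 to 0.0231 over the 13 alternative fits.

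Chac1 encodes an enzyme that breaks down glutathione and is a target of ATF4 and ATF3. Its Control values were nearly the same, at 1.10, 1.12 and 1.13 RPKM, and its OIR values were 2.31, 2.04 and 1.66 RPKM. Here OIR 3, the library with the most Atf3, Ddit3 and Trib3, was the lowest of the OIR libraries, still above all Control values. The means were 1.11 ± 0.0157 and 2.002 ± 0.327 RPKM (SD, n = 3 each), a ratio of 1.80. Only 63 to 134 reads per library lay behind them, so counting error is large at this level. Its log2 fold change was 0.50 (SE 0.0977), with an adjusted p of 0.00789 in limma and of 0.00530 to 0.0437 over the alternatives. With a pseudocount of 0.1 in place of 1 the log2 fold change was 0.78.

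Sesn2, which encodes sestrin 2, an inhibitor of mTORC1 signalling induced by ATF4 and by p53, was at 8.87, 9.52 and 6.65 RPKM in Control and at 9.47, 8.19 and 9.10 RPKM in OIR. The lowest value was in Control 3, the lens-rich library, and the groups overlapped. The log2 fold change was 0.10, with a 95% interval from -0.16 to 0.35 and an adjusted p of 0.596 in limma, and it was -0.04 without Control 3.

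Asns, the asparagine synthetase gene and a classical ATF4 target, did not differ between the groups beyond the spread between libraries. It was at 15.8, 15.6 and 16.0 RPKM in Control and at 15.3, 17.2 and 15.5 RPKM in OIR, with OIR values on both sides of the Control values. The means were 15.8 ± 0.191 and 16.0 ± 1.02 RPKM (SD, n = 3 each). The log2 fold change was 0.01, its 95% interval from -0.14 to 0.16 and its adjusted p 0.910 in limma, and its sign changed with the scaling. Its promoter window holds the C/EBP-ATF core printed above, as do those of Atf3, Trib3 and Chac1, whose lower interval bounds were 0.64, 0.52 and 0.28.

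Both ER chaperones among the members had log2 fold changes below 0, and neither passed in the main fit. Hspa5 encodes BiP, the main HSP70 chaperone of the ER and the sentinel that holds the ER stress sensors inactive. It was at 147.5, 136.9 and 132.6 RPKM in Control and at 129.0, 124.0 and 124.5 RPKM in OIR. Every OIR value was below every Control value, by a small margin. The means were 139.0 ± 7.70 and 125.9 ± 2.74 RPKM (SD, n = 3 each), a ratio of 0.906, and Hspa5 did not pass, with a log2 fold change of -0.14, a 95% interval from -0.29 to 0.01 and an adjusted p of 0.161 in limma. It did not pass in any alternative fit, the nearest being an adjusted p of 0.0519 without both lens-rich libraries. In the RefSeq annotation Hspa5 shares 1921 bases with Rabepk, whose means were 5.24 ± 0.645 (Control) and 5.80 ± 0.260 (OIR) RPKM (SD, n = 3 libraries each).

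Hsp90b1 encodes the HSP90 paralog of the ER, which folds integrins and Toll-like receptors. Its values were 174.6, 166.0 and 156.4 RPKM in Control and 143.5, 150.8 and 149.9 RPKM in OIR, again without overlap. The means were 165.7 ± 9.10 and 148.1 ± 3.98 RPKM (SD, n = 3 each), a ratio of 0.894. The log2 fold change was -0.16, with a 95% interval from -0.31 to -0.01 and an adjusted p of 0.121 in limma, so Hsp90b1 did not pass. It passed as lower with median-of-ratios scaling, at 0.0409, without Control 3, at 0.0376, and without both lens-rich libraries, at 0.0151, with log2 fold changes of -0.20, -0.20 and -0.21. Control 3, the lens-rich library, had the lowest Control value of both chaperones; the part of its lens RNA in that was not tested.

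**Figure D3:**
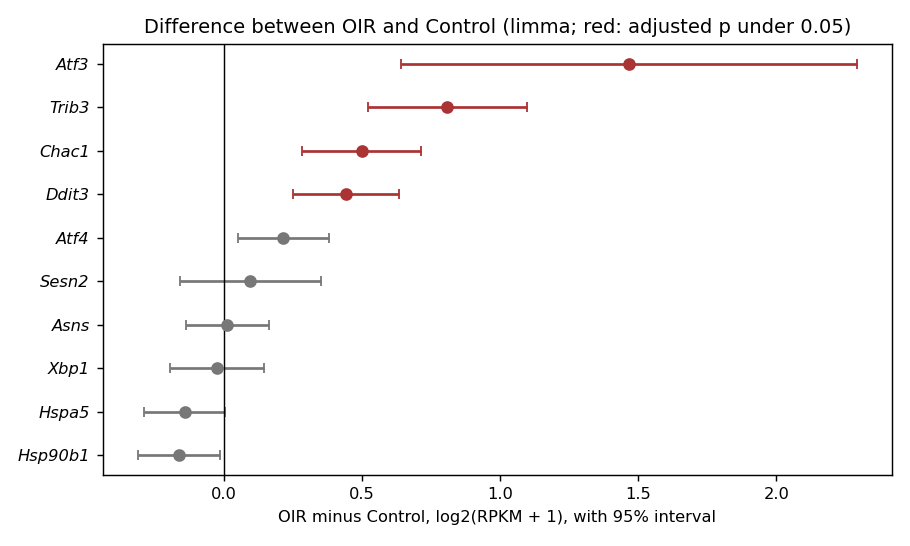
Difference between OIR and Control for each member in log2(RPKM + 1) with its 95% interval from limma; red marks an adjusted p under 0.05. Atf3, Trib3, Chac1 and Ddit3 stand to the right of 0, and Hspa5 and Hsp90b1 to the left with grey points.

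The other genes of the pathway were described through 7 lists with 114 genes in the files, of which 104 were tested. Across the lists, 23 rose (22.1%) and 3 fell (2.88%), against 11.6% and 7.22% of all genes tested, and the median log2 fold change was 0.07 against 0.03. The lists were chosen with earlier results of these data known. The shares here and in each list below therefore describe the lists and are not a test of the pathway. Median-of-ratios scaling gave 19 higher and 8 lower, and over all genes it moved the split from 1407 higher and 875 lower to 1281 and 1313. Without single libraries the counts fell to 9 higher and 1 lower (Control 1), 13 higher (Control 2), 6 higher and 0 lower (OIR 1) and 9 higher (OIR 3). Over all genes tested the number higher fell too, from 1407 to 658, 941, 513 and 697 in the same order. Without Control 3, 6 list genes were lower, and without both lens-rich libraries 27 were higher and 9 lower. Over all genes tested, 1070 were lower without Control 3. Without both lens-rich libraries 2094 were higher and 1943 lower.

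Amino acid synthesis and transport, the core of the ATF4 programme, moved most in number. Of 18 tested genes, 7 rose (38.9%), 2 fell (11.1%) and 9 did not pass, with a median log2 fold change of 0.13. Slc7a5, the large neutral amino acid transporter, rose from 20.7 ± 1.52 to 32.4 ± 2.75 RPKM (SD, n = 3 each), with an adjusted p of 0.00109 in limma. The neutral amino acid transporter gene Slc1a4 rose from 5.17 ± 0.400 to 9.32 ± 1.69 RPKM and the cationic transporter gene Slc7a1 from 2.79 ± 0.248 to 4.42 ± 0.2796 RPKM. Shmt2, a mitochondrial enzyme that splits serine for one-carbon units, rose from 22.0 ± 0.480 to 31.8 ± 3.71 RPKM. These 4 calls held in all 13 alternative fits. The genes that fell were Psat1, an enzyme of serine synthesis, from 21.7 ± 1.56 to 16.2 ± 1.57 RPKM, and the glycine transporter gene Slc6a9, from 79.8 ± 8.83 to 58.3 ± 6.23 RPKM. Slc6a9 is also expressed by glycinergic neurons and glia. Of 6 Müller glia markers, 4 were lower and 2 higher in OIR, and the part of any cell type in the fall of Slc6a9 was not tested. Both calls ended without OIR 1, at adjusted p of 0.0542 and 0.0617, and that of Slc6a9 also without Control 1, at 0.0599. The list's count of higher genes was 4 without Control 1 or OIR 1, and its count of lower genes 1 and 0.

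Of 7 tested output genes of ATF4 and CHOP, 4 rose (57.1%) and 3 did not pass, with a median log2 fold change of 0.34. Gdf15, Fgf21 and Tnfrsf10b, also listed, were too low to be tested, and their groups overlapped. Stc2, the gene of the secreted glycoprotein stanniocalcin 2, rose from 1.28 ± 0.334 to 6.47 ± 1.80 RPKM (SD, n = 3 each), a ratio of 5.06 and an adjusted p of 0.00113 in limma. With Control 2 at 0.917 RPKM, Stc2 met the filter of 1 RPKM in 3 libraries only with its OIR values. Ddit4, an mTORC1 inhibitor that is also induced by hypoxia, rose 1.49-fold (adjusted p = 0.00659). Ero1a, which reoxidises protein disulfide isomerase and is also induced by hypoxia, rose from 7.82 ± 0.321 to 14.3 ± 4.10 RPKM, and Bcl2l11, which encodes the death protein BIM, from 2.37 ± 0.214 to 3.26 ± 0.395 RPKM. Without single libraries 2 of the 4 calls remained, those of Stc2 and Ddit4, when Control 1, Control 2 or OIR 1 was left out. The call of Ero1a ended without Control 1, Control 2, Control 3 or OIR 1, at adjusted p of 0.118, 0.128, 0.0800 and 0.158, and with limma-voom on recovered reads, at 0.0647. That of Bcl2l11 ended without Control 1, Control 2, OIR 1 or OIR 3, at 0.0788, 0.112, 0.0592 and 0.135, and with no filter on low values, at 0.0617. Vldlr and Map1lc3b were at 24.1 and 74.0 RPKM in Control and at 26.4 and 72.3 RPKM in OIR.

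Of 9 tested genes in a list of transcriptional regulators of the response, 3 rose (33.3%) and 6 did not pass, with a median of 0.37. Cebpb, a C/EBP partner of ATF4, rose from 0.908 ± 0.194 to 2.52 ± 1.08 RPKM, Atf5 from 14.3 ± 1.18 to 21.5 ± 3.77 RPKM, and Atf7, whose groups overlapped, from 10.3 ± 1.24 to 13.6 ± 2.03 RPKM (SD, n = 3 each). Their adjusted p in limma were 0.0380, 0.0152 and 0.0453. Cebpd, a C/EBP factor of the acute-phase response, had the largest difference, from 2.71 ± 0.372 to 20.8 ± 12.7 RPKM, and did not pass, at 0.0726. OIR 2 held 7.08 RPKM, far under the 23.0 of OIR 1 and the 32.3 of OIR 3, and without OIR 2 its adjusted p was 9.59e-07. The calls of Cebpb ended without Control 1, Control 2 or OIR 1, at 0.133, 0.126 and 0.146, and with no filter on low values, at 0.0533. Those of Atf5 ended without Control 1, OIR 1 or OIR 3, at 0.0615, 0.0501 and 0.0521, and those of Atf7 without Control 1, Control 3, OIR 1 or OIR 3, at 0.140, 0.129, 0.172 and 0.129. The call of Atf7 also ended with no filter, at 0.102, with a filter of 0.1 RPKM, at 0.0568, and with median-of-ratios scaling, at 0.0540. Jun and Jdp2, partners of ATF3, did not pass: Jun had a log2 fold change of 0.35 (adjusted p = 0.0517) and Jdp2 one of -0.26 (0.0548). Jun passed without OIR 2, at 0.0101, and with limma-voom on recovered reads, at 0.0422. Jdp2 passed as lower with median-of-ratios scaling, at 0.0316. The counts of this list were 0 higher without Control 1 or OIR 1, 1 without OIR 3 and 5 without OIR 2.

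In 3 genes of the response the lens-rich Control 3 stood far above the other libraries; they were chosen after their values were seen. Nupr1, a stress-induced chromatin protein, reached 220.8 RPKM in Control 3, where Control 1 held 4.38, Control 2 held 8.79 and the OIR libraries 23.3 to 43.5 RPKM. Ppp1r15a, which encodes the eIF2 phosphatase subunit GADD34, was at 29.8 RPKM in Control 3 and at 9.79 to 13.4 RPKM in the 5 other libraries. Phgdh, the first enzyme of serine synthesis, was at 13.2 RPKM in Control 3 and at 2.80 to 4.01 RPKM elsewhere. None of the 3 passed, with adjusted p of 0.858, 0.819 and 0.726 in limma.

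Upstream of ATF4, of 18 tested sensors and eIF2 control genes, 2 rose and 16 did not pass, with a median of 0.07. The share that rose, 11.1%, was near the 11.6% of all genes tested. Ern1, which encodes IRE1, rose from 4.44 ± 0.205 to 5.70 ± 0.270 RPKM, and Creb3l2, an ER-bound relative of ATF6, from 6.83 ± 0.664 to 9.09 ± 0.586 RPKM (SD, n = 3 each), with adjusted p of 0.0222 and 0.0157 in limma. The call of Ern1 ended without Control 1, Control 2, OIR 1 or OIR 3, at 0.0548, 0.0610, 0.107 and 0.0585, and that of Creb3l2 without OIR 1 or OIR 3, at 0.0615 and 0.0666. Eif2ak3, which encodes the ER stress kinase PERK, was at 10.05 ± 1.73 and 11.7 ± 0.905 RPKM and did not pass, at 0.201. Eif2s1, the phosphorylated subunit of eIF2, was at 11.6 ± 0.277 and 10.3 ± 0.645 RPKM, at 0.1299, and passed as lower without both lens-rich libraries, at 0.0455. Of 12 tRNA synthetase genes, 2 rose (16.7%), Lars from 11.9 ± 0.604 to 14.6 ± 0.521 RPKM and Mars1 from 16.2 ± 0.532 to 19.4 ± 0.303 RPKM, and 10 did not pass, with a median of 0.09. Both calls ended without Control 1, Control 2, OIR 1 or OIR 3, at adjusted p of 0.0525 to 0.103, and without both lens-rich libraries 1 gene of this list was lower.

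Among 23 tested ER chaperones and foldases other than the members, 3 rose and 20 did not pass, with a median log2 fold change of -0.02. The share that rose, 13.0%, was near the 11.6% of all genes tested. P4hb, a protein disulfide isomerase that is also the beta subunit of collagen prolyl hydroxylase, rose from 77.2 ± 3.14 to 96.8 ± 7.75 RPKM, Ppib, a prolyl isomerase of collagen folding, from 99.0 ± 3.49 to 116.8 ± 4.84 RPKM, and Sec61a1, the pore of the ER translocon, from 29.0 ± 0.137 to 35.7 ± 2.37 RPKM (SD, n = 3 each). Their adjusted p in limma were 0.0147, 0.0295 and 0.0152. The calls of P4hb and Sec61a1 ended without OIR 1, at 0.0590 and 0.0755, or OIR 3, at 0.0729 and 0.0747, that of Sec61a1 also without Control 1, at 0.0548, and that of Ppib without Control 1, Control 2, OIR 1 or OIR 3, at 0.0973 to 0.141, and with median-of-ratios scaling, at 0.0617. The count was 1 without Control 1 and 0 without OIR 1 or OIR 3. In 4 genes every OIR value lay below every Control value (17.4%, against 15.0% of all genes tested). In 4 every OIR value lay above (17.4%, against 23.6%), the 3 that rose and Sec61b. The 4 lower ones, Dnajb9, Pdia6, Hspa13 and Canx, did not pass, with log2 fold changes of -0.25, -0.17, -0.19 and -0.16, at adjusted p of 0.0840, 0.0990, 0.108 and 0.113. With median-of-ratios scaling, and also without both lens-rich libraries, 3 genes of this list passed as lower, and 2 did without Control 3. Over all genes the number lower also rose in these settings, from 875 to 1313, 1943 and 1070 in the same order. Dnajb9, an IRE1 target, reached an adjusted p of 0.00905 without both lens-rich libraries.

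Of 17 tested genes of ER-associated degradation, 2 rose, 1 fell and 14 did not pass, with a median of 0.06. The shares, 11.8% higher and 5.88% lower, were near those of all genes tested. Of the mannosidase-like genes, Edem1 rose from 2.83 ± 0.218 to 3.83 ± 0.218 RPKM and Edem2 from 16.2 ± 1.56 to 21.2 ± 2.50 RPKM, while Herpud1, an ER membrane protein induced by ER stress, fell from 32.6 ± 1.63 to 27.2 ± 0.859 RPKM (SD, n = 3 each). Their adjusted p in limma were 0.0201, 0.0246 and 0.0225. The related Edem3 was at 11.7 ± 0.932 and 10.98 ± 0.299 RPKM, with overlapping groups, and did not pass, at 0.496. The call of Edem1 ended without Control 2, OIR 1 or OIR 3, at 0.0640, 0.0927 and 0.0705, that of Edem2 without Control 1, Control 3, OIR 1 or OIR 3, at 0.0720, 0.0672, 0.112 and 0.0707, or with no filter, at 0.0668, and that of Herpud1 without Control 1, Control 2, OIR 1 or OIR 3, at 0.0818, 0.0827, 0.0661 and 0.0975.

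**Figure D4:**
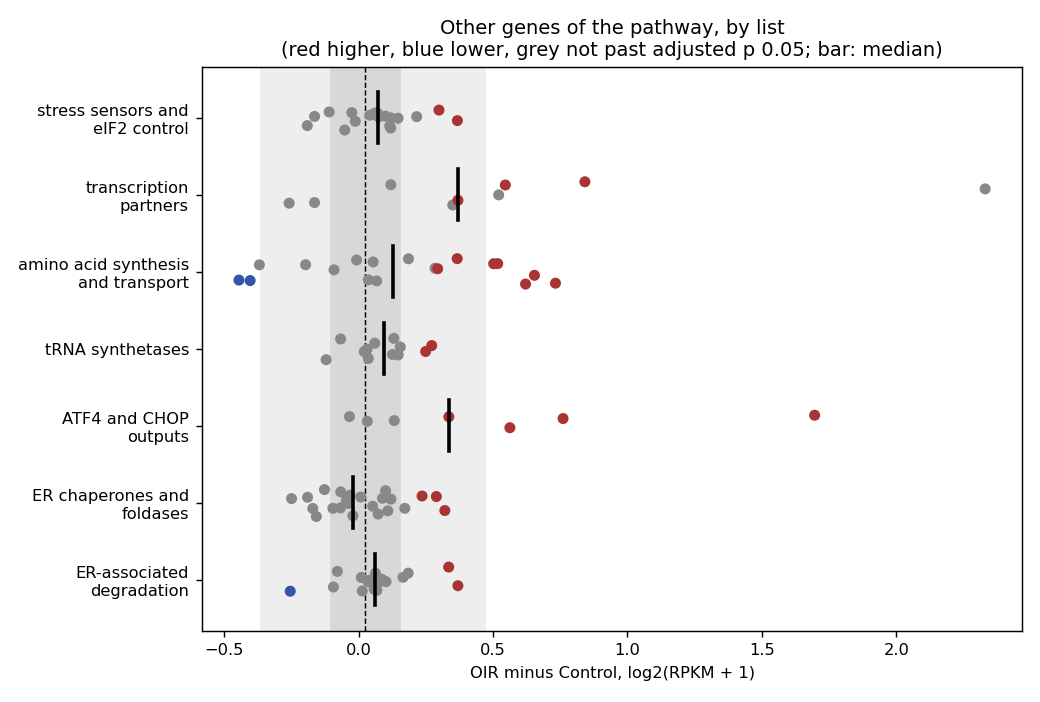
Difference between OIR and Control in log2(RPKM + 1) for each tested gene of the 7 lists, members left out; red points were higher and blue lower at an adjusted p under 0.05, and black bars are list medians. The dark grey band holds the middle part of all genes tested, from -0.10 to 0.15 (25th to 75th percentile), the light band runs from -0.36 to 0.47 (5th to 95th percentile), and the chaperone median of -0.02 lies within the dark band.

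The 3 OIR libraries were not alike. OIR 2 had the lowest OIR value in 3 of the 4 members that rose, in 20 of the 23 list genes that rose (87%) and in 1139 of the 1407 genes that rose in all (81%), so most genes that rose shared this order. OIR 2 also had the lowest red cell sum among the OIR libraries, at 84.2 RPKM, the lowest microglia sum, at 57.9 RPKM, and the most lens RNA. The part of these in the member values was not tested. Chac1 went the other way, with OIR 3 lowest.

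**Figure D5:**
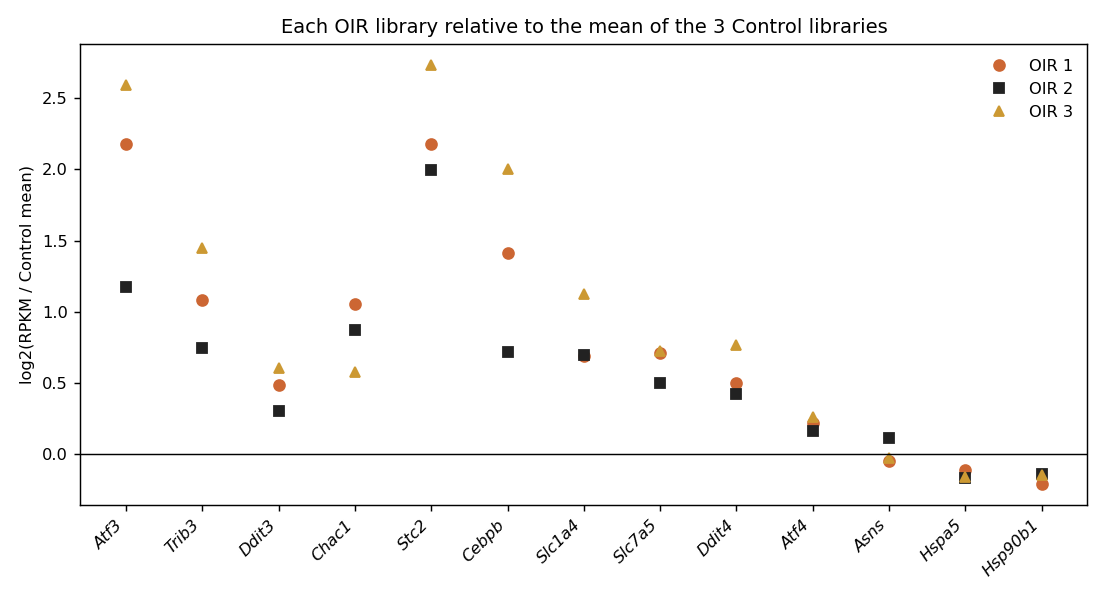
log2 ratio of each OIR library to the mean of the 3 Control libraries, without a pseudocount, for members and examples from the lists. OIR 2 (black squares) is lowest for Atf3, Trib3, Ddit3, Stc2 and Cebpb, OIR 3 is lowest for Chac1, and Hspa5 and Hsp90b1 lie below 0 in all 3 libraries.

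Genes with the most similar pattern over the 6 libraries were sought among tested genes with a mean of at least 10 RPKM, by the root mean square difference of gene-centred log2(RPKM + 1) values. Nearest to Atf3 among 5762 genes were Junb, an immediate early gene, at 0.0775, the leucine-rich repeat gene Lrrc2, at 0.0890, and the metallothionein gene Mt1, at 0.123. Junb was at 7.47, 7.50 and 6.13 RPKM in Control and at 22.9, 13.4 and 33.2 RPKM in OIR, with OIR 2 lowest and OIR 3 highest as for Atf3. Nearest to Atf4 were Bbs5 at 0.0151, Upf1 at 0.0159 and Pacsin2 at 0.02002. Nearest to Hspa5 were Far1 at 0.0111, Yme1l1 at 0.0162 and Cse1l at 0.0181, none of which is an ER chaperone.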

How the data were processed

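RNA of whole retina was measured in 3 Control and 3 OIR libraries, grouped by sample title. The authors deposited 1 RPKM value per gene symbol and library. Per the submitters' processing notes, the tools included TopHat2 2.0.12 and Bowtie2 2.0.6. The genome build, annotation, counting program and strand were not given in the sources used here, and the library protocol in the labels describes another species.

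Relative depth was read from the steps between low values, each worth 1 read, and GENCODE M21 transcript lengths gave the absolute depth through 164 genes. Of 17953 genes above 0, 99.99% came out as whole reads within 0.02 of a read. A recovered read number can be a divisor of the true one.

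Genes with at least 1 RPKM in at least 3 libraries were tested with limma 3.58.1 (R 4.3.3; trend and robust options) on log2(RPKM + 1), with group as the only term, two-sided, with Benjamini-Hochberg adjustment over 12112 genes and a threshold of 0.05. The fit was also run on simulated counts, with the same extra spread for every gene and no library set apart by lens RNA. That run does not show how the fit performs on libraries that differ as these do. With 3 against 3 libraries an exact permutation test of 1 gene cannot go below 0.1.

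The members and lists were chosen with earlier results of these data known. Named from each list were up to 6 tested genes with the smallest adjusted p, or 2 where none passed, and genes called in the list's rarer direction, with gene models (Gm, Rik, LOC, -ps) passed over, and the 3 genes most like Atf3, Atf4 and Hspa5 in pattern; some of these are given by counts only. Promoter windows are from RefSeq (GRCm38.p6). Alternatives were a pseudocount of 0.1, other filters, median-of-ratios scaling, a replicate block, each library left out, both lens-rich libraries left out, limma-voom on recovered reads, and a log2 fold change of at least 0.5.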

Additional observations from a re-analysis of the deposited data

How the results depend on the processing

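Over 13 alternative fits of 52 named genes, 580 of 676 values kept their direction and their side of the threshold, 71 lost the call, 17 gained it and 8 changed sign, all 8 near 0. Of the 27 named genes past the threshold, 9 passed in every fit: Ddit3, Trib3, Chac1, Stc2, Ddit4, Slc7a5, Slc1a4, Slc7a1 and Shmt2. The log2 fold change of Asns was -0.023 with median-of-ratios scaling and -0.028 without both lens-rich libraries. With 1 library left out it ranged from -0.036 (without OIR 2) to 0.042 for Asns, from -0.041 (without Control 3) to 0.188 for Sesn2, from -0.096 to 0.015 for Xbp1 (above 0 without Control 2, OIR 2 or OIR 3) and from -0.055 to 0.0059 (without OIR 1) for Map1lc3b. With 1 library left out, 3 to 4 members were higher and 0 to 1 lower, and 6 to 25 list genes were higher and 0 to 6 lower. Over all genes tested these fits gave 513 to 1754 higher and 212 to 1293 lower, against 1407 and 875 in the main fit. With median-of-ratios scaling 1 member and 8 list genes were lower, and without both lens-rich libraries 1 member and 9 list genes. Over all genes 1313 and 1943 were lower in these fits. Requiring also a log2 difference of 0.5 or more in size left 10 list genes higher and 0 lower. The cause of these moves was not tested; leaving out libraries gave fewer calls in some cases and more in others.

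Libraries with the same replicate number were not the most alike: their deviations from their group means correlated at 0.22, -0.44 and -0.41. The highest correlation, 0.49, was between Control 3 and OIR 2, the lens-rich libraries. The part of lens RNA in these correlations was not tested, so they do not settle whether the libraries were paired. With the replicate number as a block, 3 members and 22 list genes were higher and 0 and 3 lower, and no library correlated best with its own number. Among the members the block ended the call of Atf3, at an adjusted p of 0.128, and in the lists that of Atf7, at 0.0845. Depth limits Chac1, Atf3 and Trib3 most, with 63 to 160 reads per Control library.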
